A study of Mus musculus with 3 samples.

Results

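The genes described here are 234 protein-coding genes of mouse chromosome 17 that surround the major histocompatibility complex (MHC), among the 54532 genes of the deposited expression table. They were chosen by position and level: a gene start from 20 to 40 Mb and a mean FPKM of at least 1 over the 3 libraries. FPKM counts the fragments per kilobase of a gene after scaling for library size. The table lists 571 protein-coding genes in that interval, and 302 of them reached the level. Of these, 68 were left out by name, among them the H2 genes, the complement genes, and several large families of ribosomal, proteasome, zinc finger and channel genes. The rule thus used the mean level of each gene, so that level is a description and not a result. Def6 (mean FPKM 1.01) and Ccdc78 (1.02) lay just inside the threshold, and Ip6k3 (0.968) and Ggnbp1 (0.947) just outside it.

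The mouse MHC, called H2, encodes the class I and class II proteins that present peptides to T cells. Between the class I and class II genes lies the class III region, a gene-dense stretch that mixes immune genes with genes for RNA processing, chaperones and transcription. The flanking segments hold many housekeeping and neuronal genes with no known part in antigen presentation. Because H2 haplotypes differ between inbred strains, a segment that comes from another strain can carry many linked sequence differences. The question put to these genes was whether they move in large steps from one genotype to the next.

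RNA was sequenced from the hippocampus of mice aged 10 months, 1 library for each of 3 genotypes: wild type (WT), PS19 and, under the name PS19 Zbp1+/-, PS19 lacking 1 allele of Zbp1. The sources describe all as on a C57BL/6 background, and the strain of this chromosome 17 segment was not tested. PS19 mice carry a human tau transgene under the mouse Prnp promoter and serve as a model of tau pathology, so both PS19 groups share the transgene and differ in Zbp1, which encodes a sensor of Z-form nucleic acids. Sex, the number of animals per library and the strand of the reads are not given in the sources used here. With 1 library per genotype no difference below has a replicate check and none has a p-value: each compares 2 libraries, not 2 conditions.

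Whole reads could be recovered from the FPKM values, and they summed to 16746085 in WT and 16400328 in PS19, against 17109734 in PS19 Zbp1+/-. Zbp1 itself had 5, 91 and 0 reads in the same order, so the targeted gene does not tell 1 intact allele from none. The PS19 Zbp1+/- library had Y-linked reads (711 of Ddx3y, against 0 in both others) and 0 reads of Xist, which had 11062 in WT and 13350 in PS19. The 8 choroid plexus markers summed to an FPKM of 3405 in WT and 2167 in PS19, against 25.5 in PS19 Zbp1+/-. Astrocyte markers (6 genes) summed to 272, 1055 and 261, of which Gfap alone had 98.4, 768 and 112. All 6 were higher in PS19 than in WT, 2 of them by at least 2-fold. Endothelial and pericyte markers (7 genes) summed to 58.6, 67.4 and 77.9, and Cldn5 alone had 22.4, 19.1 and 38.1. Against PS19, 5 of the 7 were lower in PS19 Zbp1+/- and 2 higher, none by 2-fold. Sex, choroid plexus content and genotype cannot be told apart in the comparisons with PS19 Zbp1+/-. In bulk tissue, fewer cells of a type and less RNA per cell cannot be told apart either.

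The 234 members were well measured for the most part. Their mean FPKM ranged from 1.01 to 291 (Fbxl16, an F-box protein gene), with a median of 8.52, and 104 members had a mean of at least 10. At least 50 reads were present in each library for 213 members, none was at 0 in any library, and the fewest reads over the 3 libraries were 29. In the table, 102 members overlap another gene that holds reads, 86 of them a gene on the opposite strand. Overlap was counted over whole gene spans, introns included, and for some pairs it is a few bases. Without strand information, reads in the bases that both genes share cannot be told apart.

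Most members differed little between the 3 libraries, about as little as all expressed protein-coding genes. Differences are given on the scale log2(FPKM + 1), where 1 unit is 2-fold and changes of weakly expressed genes are understated. Over the 3 libraries, 16 of 234 members (6.84%) spanned at least 2-fold, where 8.04% of all 12274 protein-coding genes with a mean FPKM of at least 1 did so. The median span was 0.43 units in the members and 0.40 in all those genes. That wider set holds the members too, and it keeps the gene families that were left out by name here. The flattest members with a mean FPKM of at least 10 were Pdpk1, the kinase that activates AKT, with a span of 0.07, Btbd9, a BTB domain adaptor, with 0.08, and Csnk2b, the regulatory subunit of casein kinase 2, with 0.09. Csnk2b, which lies inside the class III region, had FPKM values of 30.2, 28.8 and 30.8 in WT, PS19 and PS19 Zbp1+/-.

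Between PS19 and WT, Cdkn1a, Myo1f, Aif1 and Rasal3 were higher in PS19 by at least 2-fold, and Gm8186 and Atp6v0c lower by as much. The 4 higher members are 1.71% of 234, and 1.88% of all genes were higher by as much. Myo1f and Rasal3 reached a mean FPKM of 1 only through their PS19 values, so the rule itself favoured them here. The same level was asked of all genes. The 2 lower members are 0.855%, beside 0.277% of all genes, and 2.16% of all genes differed by as much either way. The median difference was -0.07 in the members and -0.03 in all genes. Rescaling the libraries to the same FPKM sum (TPM) gave 5 higher and 1 lower, beside 3.48% and 0.358% of all genes, and turned the members' median to 0.05, with 0.08 in all genes.

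Between PS19 Zbp1+/- and PS19, 4 members were higher in PS19 Zbp1+/- by at least 2-fold (1.71%, beside 1.98% of all genes) and 9 were lower by as much (3.85%, beside 4.75%). Either way, 6.73% of all genes differed by 2-fold. The higher ones were Gm8186, Ly6g6e, 4930539E08Rik and Mdga1. Of these, Ly6g6e and 4930539E08Rik reached a mean FPKM of 1 only through their PS19 Zbp1+/- values, so the rule favoured them here. The 5 lowest were Atp6v0c, Cdkn1a, Myo1f, Aif1 and Gpsm3. Among the 9 lower members, Myo1f and Rasal3 had reached the level only through PS19, and Tekt4 only through WT and PS19. The rule favoured these as well. The median was 0.12 in the members and 0.05 in all genes. Scaling by total reads gave 3 higher and 14 lower, beside 1.11% and 6.24% of all genes. TPM gave 3 and 21, beside 1.25% and 10%. Under them the all-gene median was -0.11 and -0.22, and that of the members to -0.04 and -0.14.

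Between PS19 Zbp1+/- and WT, Ly6g6e, Mdga1 and Abca3 were higher in PS19 Zbp1+/- by at least 2-fold (1.28% of members, beside 1.0% of all genes). Here too Ly6g6e had reached the level only through PS19 Zbp1+/-. Atp6v0c, Eci1, Gm10226, Rsph1 and Tekt4 were at least 2-fold lower (2.14%, beside 2.11%). Of these, Tekt4 had reached the level only through its WT and PS19 values, so the rule favoured it here. The median was 0.06 in the members and 0.01 in all genes, and it was -0.07 and -0.08 in the members under total reads and TPM. Total reads gave 1 higher and 6 lower, beside 0.578% and 2.82% of all genes, and TPM 2 and 9, beside 0.929% and 4.64%. All 3 comparisons thus had shares of members near those of all genes, except for the 2 lower members in PS19.

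**Figure D1:**
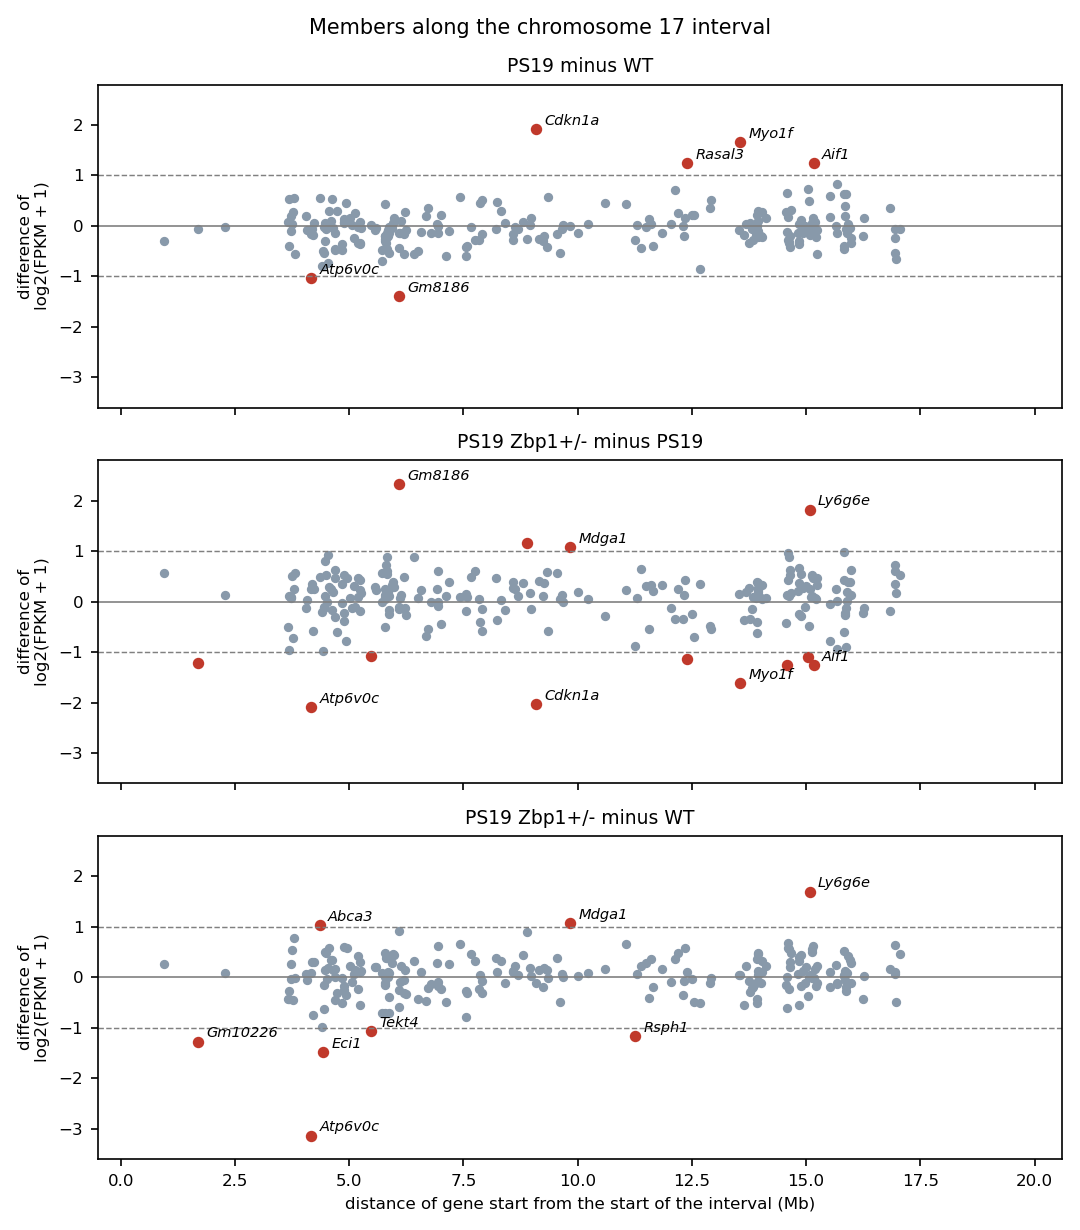
Difference of log2(FPKM + 1) of each of the 234 members (points) against the distance of its start from the start of the interval, in Mb, in the 3 comparisons. Red points lie at or past the dashed lines at 1 unit (2-fold), and most of the points lie between those lines, with Atp6v0c lowest at -3.14 in PS19 Zbp1+/- against WT.

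Large steps in 1 direction across the 3 libraries were rare. Atp6v0c and Eci1 were lower by at least 0.5 units at both steps, WT to PS19 and PS19 to PS19 Zbp1+/-, and no member was higher by as much at both. The 2 members are 0.855% of 234, beside 0.196% of all genes stepping down (24 genes) and 0.106% stepping up (13 genes). None of the 287 other expressed protein-coding genes of chromosome 17 made such steps. At 1 unit for each step Atp6v0c alone was left, beside 0.0244% of all genes stepping down and 0.0163% stepping up. Both steps share the PS19 library, so a PS19 value that is off in either direction enters both of them.

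Atp6v0c (ENSMUSG00000024121, 24163866 to 24169702, minus strand; GRCm38 positions as in the table) encodes the c subunit of the vacuolar proton pump, the membrane ring that carries protons into lysosomes and synaptic vesicles. Its FPKM was 45.0 in WT and 21.4 in PS19, against 4.24 in PS19 Zbp1+/-, from 2629, 1253 and 227 reads. WT was highest and PS19 Zbp1+/- lowest, with PS19 between them. Per library size, PS19 over WT gave a read ratio of 0.476 (95% interval 0.444 to 0.509), and PS19 Zbp1+/- over PS19 gave 0.198 (0.171 to 0.228). Such intervals are exact Clopper-Pearson intervals and cover counting error alone, as no molecular identifiers mark which reads are copies of 1 molecule. They do not cover the choice of library size. On the log2 scale the steps were -1.04 and -2.10.

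Eci1 (ENSMUSG00000024132, 24426683 to 24439316, plus strand) encodes a mitochondrial isomerase needed to oxidise unsaturated fatty acids. Its FPKM was 23.0, 16.0 and 7.64 in WT, PS19 and PS19 Zbp1+/-, from 433, 301 and 132 reads. The steps were -0.50 and -0.97, so the first stood at the threshold, and under scaling by total reads or TPM it was -0.47 or -0.39 and Eci1 no longer counted. The read ratio of PS19 Zbp1+/- over WT was 0.332 (0.271 to 0.405). Abca3 (24351950 to 24410201), a lipid transporter best known from lung surfactant, went the other way and just missed the second step. It had FPKM values of 8.0, 12.1 and 17.5, differences of 0.54 and 0.49, and a ratio of 2.18 (2.04 to 2.34) for PS19 Zbp1+/- over WT. Its difference from WT was 1.04 units, and 0.89 and 0.95 with the total-read and TPM scalings, under 2-fold.

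Some members have a near-identical copy elsewhere in the genome, and for 3 of them the copy held the more reads the fewer the member held. Copies with at least 90% identity were found for 25 members, and reads of such a copy were present for 15. Eci1 and Abca3 had none. Atp6v0c-ps2, a processed pseudogene on chromosome 6 (37806086 to 37806550), held 42 reads in WT, then 1785 in PS19, against 5524 in PS19 Zbp1+/-. The share of Atp6v0c in the reads of both was 98.4%, 41.2% and 3.95%. With the reads of the copy added, the family had 2671, 3038 and 5751 reads, and the differences of Atp6v0c turned from -1.04, -2.10 and -3.14 to 0.18, 1.03 and 1.21. The 465 coding bases differ at a single position, T111C, counted from 1 at the first base of the coding sequence, with the base of the member first. Bases 81 to 140 of that coding sequence are shown beside the copy because a read inside most of it fits both genes, with the differing base in capitals (transcripts of GENCODE M21, GRCm38).
Atp6v0c: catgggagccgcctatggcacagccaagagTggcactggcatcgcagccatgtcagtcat
Atp6v0c-ps2: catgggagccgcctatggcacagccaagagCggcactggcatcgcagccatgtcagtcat

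Rnps1 (24414675 to 24425895), which encodes an RNA-binding protein that joins spliced mRNA at exon junctions, lies next to Eci1. It had 1792 reads in WT and 1023 in PS19, against 812 in PS19 Zbp1+/-, while its copy Gm9825 on chromosome 6 had 14, 250 and 639. The share of Rnps1 was 99.2%, 80.4% and 56%, lowest in PS19 Zbp1+/-. Its differences were -0.79 for PS19 against WT and -0.99 for PS19 Zbp1+/- against WT, and -0.50 and -0.19 with the reads of the copy added. The copy covers 843 of 915 coding bases and differs at 5 of them, C243A, C332T, T561C, T582C and C756T. Bases 531 to 590 hold both differences that lie closest together, in capitals.
Rnps1: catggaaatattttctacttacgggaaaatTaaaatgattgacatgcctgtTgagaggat
Gm9825: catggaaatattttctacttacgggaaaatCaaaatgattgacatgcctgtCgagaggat

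Hmga1 (27556497 to 27563674) encodes an AT-hook protein that bends DNA in chromatin. It held 681 (WT), 438 (PS19) and 351 (PS19 Zbp1+/-) reads, against 32, 254 and 651 of Hmga1b on chromosome 11, which the table lists as protein-coding. The share of Hmga1 was 95.5%, 63.3% and 35%. Its difference between PS19 Zbp1+/- and WT turned from -0.78 to 0.59 with the reads of the copy added. The 321 coding bases of both genes are identical, as the first 60 of them show, so over the coding sequence no read can be assigned to either gene by its letters.
Hmga1: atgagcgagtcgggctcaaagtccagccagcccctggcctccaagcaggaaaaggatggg
Hmga1b: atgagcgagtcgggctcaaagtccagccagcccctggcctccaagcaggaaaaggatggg

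Glo1 (30592866 to 30612659), the glyoxalase that clears methylglyoxal, did not follow that pattern. It had 1578 reads in WT and 2162 in PS19, against 1622 in PS19 Zbp1+/-, and its copy Gm13443 on chromosome 2 had 7, 218 and 210. The share of Glo1 was 99.6%, 90.8% and 88.5%, and Glo1 was highest in PS19, with or without the reads of the copy.

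In each library, at least 200 reads were asked of a family, which allows a wider count, made after these values had been seen. The member's share was lower in PS19 Zbp1+/- than in WT by at least 20 percentage points for Atp6v0c, Rnps1 and Hmga1, which are 3 of 20 such families (15%). The same held for 15 of 1177 families over all expressed protein-coding genes (1.27%) and for 9 of 1146 outside the interval (0.785%). At 5 points Glo1 joined, for 4 of 20 (20%), beside 58 of 1177 (4.93%). No member's share was higher in PS19 Zbp1+/- by 5 points. Whether these reads came from the members, from the copies, or from a changed assignment between them was not tested.

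**Figure D2:**
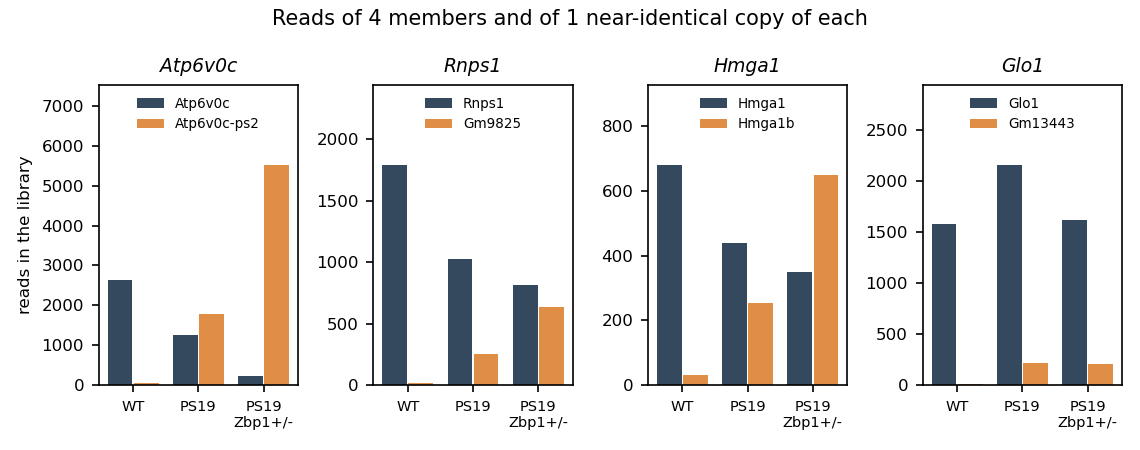
Reads in each library (vertical axis, a separate scale per panel) of 4 members (dark bars) and of 1 near-identical copy of each (orange bars). For Atp6v0c, Rnps1 and Hmga1 the member's bars are lower and the copy's bars higher from WT to PS19 to PS19 Zbp1+/-, for Atp6v0c from 2629 to 227 and from 42 to 5524 reads.

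Of the 13 members in the list of immune and class III genes, 11 were higher in PS19 than in WT by any amount (84.6%, beside 45.2% of all genes). The list was picked by hand with earlier results known, and it does not hold every class III member. It also holds immune genes from outside the class III region, such as Rasal3. Class III members outside the list were not counted as a set. Among them, Csnk2b, Ly6g6e, Atp6v1g2 and Dxo were lower in PS19 than in WT, and Prrc2a and Skiv2l were higher. Of 29 listed genes 13 were members, 15 lay below the level (Tnf had 0, 5 and 0 reads) and 1 outside the interval. Between PS19 and WT, 2 of the 13 were at least 2-fold higher (beside 1.88% of all genes), and between PS19 Zbp1+/- and PS19, 4 were at least 2-fold lower (beside 4.75%). Rasal3, which is in both counts, had reached the level only through PS19. The medians of the 13 were 0.31 for PS19 against WT and -0.19 for PS19 Zbp1+/- against PS19, which is 0.34 above and 0.23 below the median of all genes. Under total reads and TPM they kept these signs, at 0.34 and 0.51, then -0.33 and -0.49. PS19 Zbp1+/- against WT gave a median of 0.03, and -0.10 and -0.11 with those scalings.

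Aif1 (35170991 to 35176068), which encodes the microglial calcium-binding protein Iba1, had 55 reads in WT and 167 in PS19, against 50 in PS19 Zbp1+/-. Its FPKM was 2.08, 6.31 and 2.06, so PS19 stood apart and the other libraries were level. PS19 over WT gave a read ratio of 3.03 (95% interval 2.22 to 4.19), with 0.327 (0.233 to 0.451) for PS19 Zbp1+/- over PS19. Rasal3 (32390659 to 32403583), a Ras inhibitor of blood-derived cells, had the same shape, with FPKM values of 0.911, 3.51 and 1.05 and 77, 297 and 81 reads. Clic1, an intracellular chloride channel protein, had 5.35, 9.49 and 3.90. Gpsm3, a G protein modulator of leukocytes, had few reads (32, 63 and 12), and its PS19 Zbp1+/- over PS19 ratio of 0.208 has an interval of 0.102 to 0.389.

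Tapbp (33915899 to 33929288) encodes tapasin, which holds class I molecules ready for peptide, and its FPKM was 12.2 in WT and 14.2 in PS19, against 8.80 in PS19 Zbp1+/-. It was highest in PS19 and lowest in PS19 Zbp1+/-, as Clic1 was, at a ratio of 0.724 (0.642 to 0.816) to WT. Bag6 (35135178 to 35147322), a chaperone for tail-anchored and misfolded proteins, was highest in PS19 Zbp1+/-, with 37.0, 38.5 and 55.3. Myo1f (33555719 to 33607764), a leukocyte myosin that stands in no list, had the second largest increase in PS19, with 59, 372 and 59 reads and FPKM values of 0.696, 4.38 and 0.759. The 8 microglia markers summed to an FPKM of 136, 453 and 141, none of them at 0 reads in any library. Of these, 6 were at least 2-fold higher in PS19 than in WT and 5 were lower in PS19 Zbp1+/- than in PS19 by as much. Their part in the values of Aif1, Rasal3, Myo1f, Gpsm3 and Clic1 was not tested.

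Signalling and stress genes held the member with the largest increase in PS19. Cdkn1a (29090976 to 29100727, plus strand) encodes p21, an inhibitor of cyclin-dependent kinases and a classical target of p53. It had 167 reads in WT and 804 in PS19, against 137 in PS19 Zbp1+/-, at FPKM values of 2.72, 13.1 and 2.44. PS19 was 4.80 times WT (95% interval 4.06 to 5.71), PS19 Zbp1+/- was 0.186 times PS19 (0.154 to 0.223), and PS19 Zbp1+/- over WT was 0.894 (0.708 to 1.13). On the log2 scale these were 1.92, -2.04 and -0.12.

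Ddr1 (35681567 to 35704621), a receptor kinase for collagen found in oligodendrocytes, was also highest in PS19, with FPKM values of 20.5, 37.3 and 18.9. Its read ratio was 1.82 (1.72 to 1.93) for PS19 over WT and 0.506 (0.475 to 0.539) for PS19 Zbp1+/- over PS19. The 7 oligodendrocyte markers summed to 874, 1523 and 630, with 1 of them at least 2-fold higher in PS19 than in WT and 6 lower in PS19 Zbp1+/- than in PS19 by as much. Their part in the value of Ddr1 was not tested. Ppp2r1a, the scaffold of protein phosphatase 2A, had 177, 144 and 212, and Stub1, a ubiquitin ligase for chaperone clients, had 38.4, 27.8 and 51.9. Both were lowest in PS19 and highest in PS19 Zbp1+/-. The list as a whole, 29 members, had medians of 0.02, 0.09 and 0.04 in the 3 comparisons, within 0.05 of all genes. Total reads turned the last 2 to -0.07 and -0.09, and TPM to -0.17 and -0.11.

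Neuronal and synaptic genes were mostly higher in PS19 Zbp1+/- than in either other library, by less than 2-fold. Of 26 members, 24 had a difference above 0 against PS19 (92.3%, beside 54.7% of all genes) and 22 against WT (84.6%, beside 50.7%). The medians were 0.47 and 0.35, with 0.05 and 0.01 in all genes, while PS19 against WT gave -0.06 (0.06 under TPM). Scaling by total reads left 21 and 20 of the 26 above 0, beside 38.7% and 36.9% of all genes, with medians of 0.29 and 0.20. TPM left 19 and 20, beside 30.6% and 36.8%, with medians of 0.25 and 0.22. Under both scalings 24 and 22 of the 26 lay above the median of all genes. Only Mdga1 reached 2-fold.

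Mdga1 (29827956 to 29970087, minus strand) encodes a membrane-anchored protein that binds neuroligins at synapses. It had 1336 reads in WT and 1340 in PS19, against 2765 in PS19 Zbp1+/-, at FPKM values of 8.24, 8.25 and 18.6. WT and PS19 were level, and PS19 Zbp1+/- over WT was 2.26 (95% interval 2.11 to 2.41). The difference of 1.08 units became 0.94 with total reads and 0.99 with TPM, just under 2-fold. Tubb5 (35833921 to 35838306), a beta-tubulin, had 122, 89.0 and 177. Rab26 (24527241 to 24534210), a small GTPase of synaptic vesicles, had 17.8, 10.2 and 20.3, a ratio of 0.574 (0.513 to 0.641) for PS19 over WT.

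Fbxl16, the most abundant neuronal member, had FPKM values of 282, 222 and 368. Atp6v1g2, the neuronal G subunit of the same proton pump that Atp6v0c belongs to, had 172, 115 and 159 and was lowest in PS19. Gabbr1, a GABA-B receptor subunit, had 91.8, 87.6 and 127. It was named for its known role after its values were seen. The 8 neuron markers summed to 789, 676 and 992, with 6 of 8 higher in PS19 Zbp1+/- than in WT, none at 0 reads and 1 at least 2-fold higher than in PS19. That 1 was Slc17a7, which alone had 206, 172 and 371. The 2 markers below WT were Snap25 (234, 180 and 197) and Gad1 (47.9, 47.9 and 46.1). The 6 dentate and CA markers summed to 200, 165 and 192. Their part in the neuronal values was not tested.

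**Figure D3:**
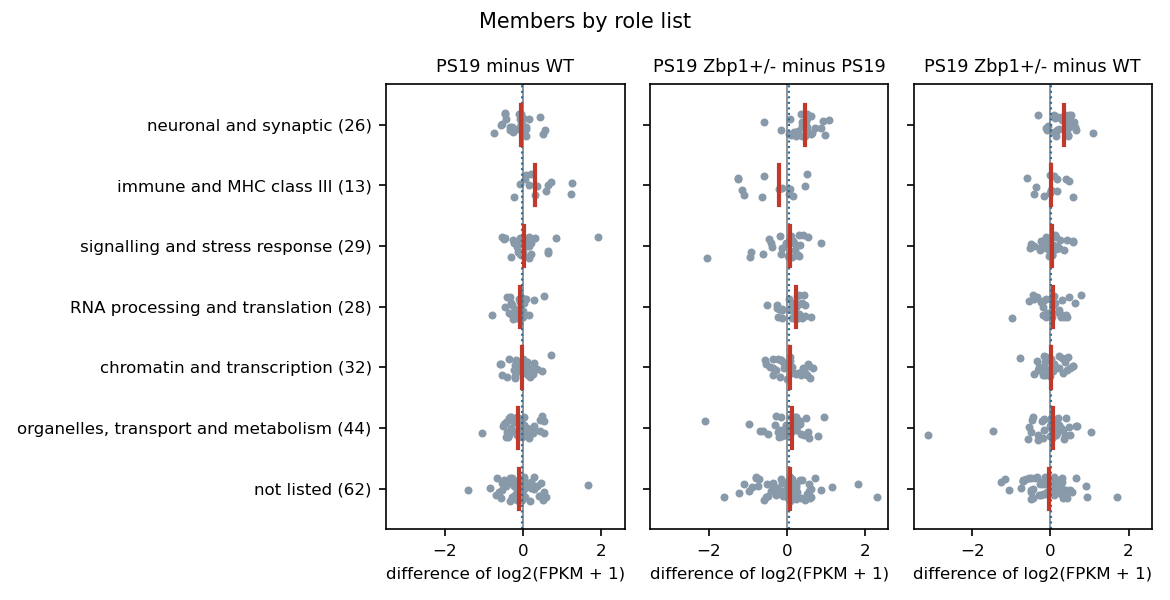
Differences of log2(FPKM + 1) of the members in 6 role lists and of the 62 members in no list (grey points, 1 per gene, number of genes in brackets), with the list median as a red bar and the median of all 12274 expressed protein-coding genes as a dotted line. The neuronal bar stands at 0.47 and 0.35 in both comparisons with PS19 Zbp1+/-, and the immune bar at 0.31 in PS19 minus WT.

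No RNA processing or chromatin member reached 2-fold on log2(FPKM + 1) in any comparison, though Rnps1 came close at -0.99 for PS19 Zbp1+/- against WT, with a read ratio of 0.494. Under total reads and TPM, 1 RNA member was at least 2-fold lower in that comparison, Rnps1 at -1.14 and -1.17. Under TPM 1 chromatin member was at least 2-fold higher in PS19 than in WT. The 28 RNA members had medians of -0.08, 0.23 and 0.05 in the 3 comparisons. TPM turned them to 0.03, -0.05 and -0.08, and total reads gave -0.05, 0.04 and -0.08. Srrm2 (23790532 to 23824741), a scaffold of nuclear speckles, had 8732, 12847 and 13930 reads and FPKM values of 39.4, 57.9 and 68.5. It was lowest in WT, at a ratio of 1.74 (1.69 to 1.79) for PS19 Zbp1+/- over WT. Prrc2a, an RNA-binding protein of the class III region, had 60.8, 68.0 and 94.3, and Gnl1, a GTPase gene, 55.3, 43.2 and 67.1.

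The 32 chromatin and transcription members had medians of -0.02, 0.08 and 0.01, within 0.03 of all genes. Total reads turned them to 0.01, -0.10 and -0.14, and TPM to 0.10, -0.20 and -0.15. Elob (23824738 to 23829136), the elongin B subunit of elongation and ubiquitin ligase complexes, had 80.5, 54.0 and 80.3 and was lowest in PS19. Its end overlaps that of Srrm2 on the other strand by a few bases, and in Srrm2 PS19 was higher than WT. Akap8l, a nuclear anchor protein, had 64.7, 55.9 and 61.7, and Hcfc1r1 60.4, 45.6 and 49.6. Both were highest in WT.

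Genes of organelles, transport and metabolism numbered 44, with medians of -0.14, 0.13 and 0.06, with -0.11, -0.04 and -0.07 under total reads and -0.03, -0.13 and -0.08 under TPM. Beside Atp6v0c, Eci1 and Abca3, all of this list, the abundant members moved less. Mtch1, a protein of the outer mitochondrial membrane, had 185, 137 and 206, and Pgp, a phosphatase that clears glycolytic side products, 71.8, 57.8 and 102. In both, PS19 was lowest and PS19 Zbp1+/- highest.

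Members in no list held several of the widest spans, mostly on few reads. Ly6g6e (35076902 to 35078804), of the Ly6 family in the class III region, had 15 reads in WT and 12 in PS19, against 90 in PS19 Zbp1+/-. Its ratio was 6.54 (95% interval 3.76 to 12.2) for PS19 Zbp1+/- over WT and 8.19 (4.47 to 16.4) over PS19. Its neighbour Ly6g6d on the opposite strand had 8, 6 and 0 reads. Gm8186, at 26098872 to 26099257, had 45, 13 and 84 reads. The table lists it as protein-coding, and GENCODE M21 as a processed pseudogene. 4930539E08Rik, of unknown function, had 65, 41 and 176 reads, and Gm10226 had 22, 21 and 6. Cyp4f15, a cytochrome P450 that hydroxylates fatty acids, had 288, 142 and 176 reads, a ratio of 0.492 (0.400 to 0.604) for PS19 over WT.

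Rsph1, Tekt4 and Ccdc78, which have parts in motile cilia, each had the fewest reads in PS19 Zbp1+/-. Rsph1 (31255019 to 31277356), of the radial spoke, had 177 reads in WT and 142 in PS19, against 62 in PS19 Zbp1+/-, a ratio of 0.382 (95% interval 0.281 to 0.513) to WT. Tekt4, a tektin of the axoneme, had 38, 39 and 4 reads, a ratio of 0.115 (0.0297 to 0.319). Ccdc78, needed for centrioles of multiciliated cells, had 41, 32 and 13. By a few bases it overlaps the far more abundant Fam173a (1193, 1037 and 1016 reads) on the opposite strand. These genes were grouped after their values were seen. In PS19 Zbp1+/- all 8 choroid plexus markers were below WT by at least 2-fold, with Slc4a5 at 0 reads there. Their part in the values of Rsph1, Tekt4 and Ccdc78 was not tested.

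**Figure D4:**
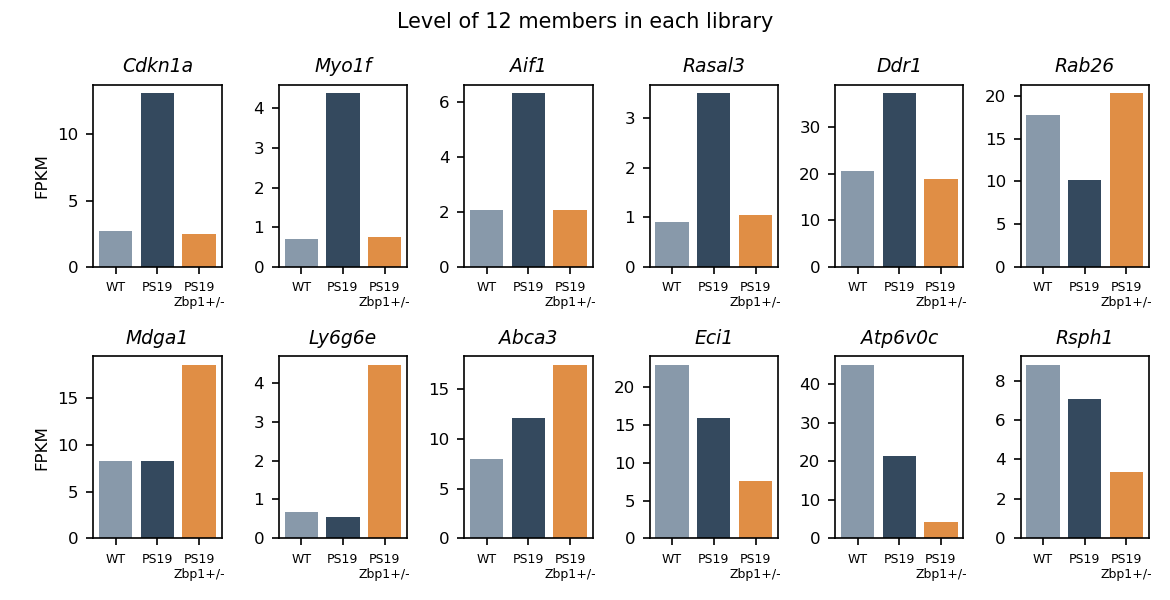
FPKM of 12 members in the 3 libraries (1 bar per library, each panel with its own scale from 0). Cdkn1a, Myo1f, Aif1, Rasal3 and Ddr1 are highest in PS19, Mdga1 and Ly6g6e in PS19 Zbp1+/-, and Atp6v0c, Eci1 and Rsph1 in WT.

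Along the interval, members that differed lay in each of 4 windows of 5 Mb. The 44 members from 20 to 25 Mb had medians of -0.04, 0.09 and 0.01 in the 3 comparisons, and the 41 from 35 to 40 Mb, -0.07, 0.13 and 0.05. At least 2-fold differences between PS19 Zbp1+/- and WT were found in 4 of the 44, 2 of 87 from 25 to 30 Mb, 1 of 62 from 30 to 35 Mb and 1 of 41 from 35 to 40 Mb, beside 3.11% of all genes. The megabase from 24 to 25 Mb holds 32 members, with Atp6v0c, Eci1, Rnps1, Abca3 and Rab26 among them. In PS19 Zbp1+/- against WT, 7 of those 32 differed by at least 1.5-fold either way, beside 28 of 234 members (12%) and 13.2% of all genes. That megabase was singled out after its values were seen.

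The 68 genes left out by name differed more than the members. Between PS19 and WT 12 of them (17.6%, beside 1.88% of all genes) were higher in PS19 by at least 2-fold. When PS19 Zbp1+/- was set against PS19, 16 (23.5%, beside 4.75%) were lower by as much. The widest spans were those of Rps2 (4555, 1943 and 173 reads), a ribosomal gene with near-identical copies, and of the class II genes H2-Aa (63, 553 and 0 reads) and H2-Eb1 (74, 367 and 2). Rps2 alone of the 68 was lower by at least 0.5 units at both steps. Its family held 5048, 3988 and 5588 reads, of which Rps2 had 90.2%, 48.7% and 3.10%.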

How the data were processed

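The authors deposited 1 table of FPKM values for 54532 genes, with 1 column per library beside each gene's length, biotype and position. The submitters' processing notes name Trim Galore 0.6.5, STAR 2.5.3a, featureCounts 2.0.4 and the build mm39. The positions in the table, however, were those of GENCODE M21 (GRCm38) for 53462 of the 54409 gene IDs found there (98.3%). All 234 members overlapped their GENCODE M21 gene, and 157 matched it exactly. The printed positions are those of the table. Libraries were made from total RNA with a NEB Next Ultra kit, per the labels' protocols.

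Each FPKM times gene length was a whole multiple of 1 step, within 0.02 reads, in 100% of values, so whole reads were recovered. The implied library sizes were 17253479 (WT), 17287957 (PS19) and 15826984 (PS19 Zbp1+/-), and read ratios were taken per these sizes. In PS19 Zbp1+/- this size lies below the reads recovered (17109734), while in WT (16746085) and PS19 (16400328) it lies above them. The sizes may thus not stand for the same quantity. Read ratios of PS19 Zbp1+/- over the other libraries are higher than they would be per total reads. Libraries were compared by their difference in log2(FPKM + 1), with a pseudocount of 1 and a threshold of 2-fold. The comparison set was 12274 protein-coding genes with a mean FPKM of at least 1. Near-identical copies were sought with BLAST 2.17.0 among the GENCODE M21 transcripts. A copy had at least 90% identity over at least 200 bases, 150 of them coding and 50% of the copy's transcript, and lay at least 1 Mb away. A symbol turned into a date by a spreadsheet was restored as March2.

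The members, role lists and marker lists (microglia, astrocyte, oligodendrocyte, neuron, dentate and CA neuron, endothelium and pericyte, choroid plexus) were chosen with earlier results of these data known. Genes were named by rule: the 5 largest increases and decreases in each comparison, members with steps of at least 0.5 units in 1 direction, the 3 most abundant members of each list, the 3 flattest with a mean FPKM of at least 10, those next to the level threshold, and the 3 widest of the genes left out by name. Other genes were picked once their values were known. The code that recovers reads and computes differences was also run on simulated data, which bears on the code alone. Python 3.11.15 was used with pandas 2.3.3, numpy 2.4.6, matplotlib 3.10.9 and scipy 1.17.1.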

Additional observations from a re-analysis of the deposited data

How the results depend on the processing

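Each of 11 values (members higher, members lower and the members' median in the 3 comparisons, and the steps up and down) was recomputed under 11 alternatives. Of 121 such values 73 kept their direction and stayed within 1.5 times the count given above, or, for a median, within its 95% binomial interval over the members, and 48 did not. That interval reflects the spread among members and does not measure error between libraries. Some outcomes were set by the alternative itself: a threshold of 1.5-fold cannot change a median and cannot lower a count. The 73 and 48 are thus a tally and no measure of robustness. The cause of a changed value was not tested where the setting itself does not give it. Counts are given as PS19 against WT, then PS19 Zbp1+/- against PS19, then PS19 Zbp1+/- against WT.

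A pseudocount of 0.1 gave 4 lower, 16 lower, and 5 higher with 9 lower, and 1 step up, where 0.611%, 7.59%, 1.88% and 3.98% of all genes were past the threshold. Ratios of reads, with a floor of 3 reads, gave 4 lower, 17 lower, and 5 higher with 9 lower, and 1 step up, beside 0.709%, 7.84%, 2.13% and 4.4% of all genes. A threshold of 1.5-fold gave 11 higher and 9 lower, 22 and 23, 14 and 14, and 1 step up, beside 5.43% and 2.62%, 9.39% and 10.8%, and 6.44% and 6.76% of all genes higher and lower. A mean FPKM of at least 5, which left 158 genes, gave 1 higher with a median of -0.14, 2 higher and 3 lower with a median of 0.22, and 3 lower. Beside these stood 1.88%, then 1.98% and 4.75%, then 2.11% of all genes with a mean FPKM of at least 1. With no filter on level, over the 343 genes not left out by name that had a read in any library, the first 2 medians were -0.010 and 0.045. Scaling by total reads gave 14 lower with a median of -0.044, 1 higher with a median of -0.071, and 1 step down. TPM gave 1 lower with a median of 0.052, 21 lower with -0.14, 9 lower with -0.079, and 1 step down. With the 68 genes left out by name put back, which made 302 genes, there were 16 higher and 4 lower, 25 lower with a median of 0.076, and 16 lower with a median of 0.0091. Of all genes, 1.88% and 0.277%, then 4.75%, then 2.11% were past the threshold, so the shares of the 302 genes were larger.

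Without the 15 members that have a near-identical copy with reads, PS19 against WT had 1 lower member, Gm8186, and 1 step down was left, that of Eci1. The search for copies asked for aligned coding bases. It could thus find none for Gm8186, a processed pseudogene in GENCODE M21, whose likeness to other genes was not tested. The last 2 alternatives were chosen after seeing the data. With the reads of the copies added to the member there were likewise 1 lower member in PS19 and 1 step down. With at least 100 reads over the 3 libraries, 3 members were lower in PS19 Zbp1+/- than in WT, beside 2.11% of all genes. No paired analysis was possible because each genotype has a single library. For members with few reads, such as Tekt4 and Gm10226, the depth leaves wide counting intervals.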

Other observations

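Genes of the interval that are not annotated as protein-coding entered none of the counts above. Of these, 15 had at least 50 reads in a library. H2-Ea-ps, a class II pseudogene at 34342933, had 0 reads in WT and 85 in PS19, against 0 in PS19 Zbp1+/-. H2-K2, a class I pseudogene at 33974831, had 69, 27 and 10, and the transcript 1110038B12Rik, at 34950238, had 164, 145 and 55. Gm49163, antisense to Flywch1, had 49, 65 and 16 reads, while Flywch1, a zinc finger gene and member, had 3455, 3540 and 4658. H2-Ea-ps was thus seen in PS19 alone. The class II genes H2-Aa (63, 553 and 0 reads) and H2-Eb1 (74, 367 and 2) were also highest there, with few reads elsewhere. The other 3 were lowest in PS19 Zbp1+/-.

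Other genes left out by name also have copies that hold reads. Rps18 had 2156 reads in WT and 836 in PS19, against 861 in PS19 Zbp1+/-, which was 93.4%, 66.7% and 65.8% of its family's reads. Rps28 had 703, 514 and 202, or 75.3%, 71.9% and 40.9% of its family. By contrast, the share of Rab11b, a member that encodes a recycling endosome GTPase, was 92.7%, 90.3% and 92.2%, and that of U2af1, a splicing factor gene, 87.2%, 88.8% and 91.1%. These genes were chosen after their values were seen.

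Across the members, PS19 Zbp1+/- was the highest library for 117 of 234 (50%), beside 40.9% of all genes, and PS19 the lowest for 109 (46.6%), beside 38.8%. Of the 68 genes left out by name, 12 were at least 2-fold higher in PS19 than in WT and in PS19 Zbp1+/- none was higher by as much than in either other library.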
